A study of Mus musculus with 11 samples.

Results

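Tumor macrophages were followed through 10 marker genes, among them *Adgre1*, *Csf1r*, *Csf1*, *Cd68*, *Mrc1*, *Cd163*, *Itgam*, *Trem2* and *Apoe*. They are the rows of the deposited count and CPM tables (CPM, counts scaled to the same total in every tumor) that carry these gene names, 10 of the 26283 genes listed, and they stand for macrophage receptors, the CSF1 growth factor axis and polarization markers. All 10 passed the filter on low counts that left 19232 genes for testing, and each had at least 10 counts in every tumor.

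Macrophages arise from circulating monocytes and from tissue-resident precursors, and most of them depend on signals through the receptor encoded by *Csf1r*, which binds the growth factors CSF1 and IL-34. In MMTV-PyMT mammary tumors macrophages are an abundant immune population, known for roles in vessel growth, matrix remodelling and spread of tumor cells. Their state is often described along an axis from inflammatory to tissue-repairing or scavenging, although single marker genes are shared with other cells: *Itgam* is also expressed by neutrophils and monocytes, and *Csf1* and *Apoe* can be made by epithelial, stromal or other cells.

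The study asked how loss of PCBP1, a protein that binds poly-cytosine stretches of nucleic acids, alters mammary tumors. Bulk RNA was sequenced from 11 tumors of female C57BL/6 mice aged 18 weeks, and the labels name no separate batches. All mice carried the MMTV-PyMT transgene, which expresses the polyomavirus middle T oncogene in the mammary gland, and the MMTV-Cre transgene. In 6 of them both *Pcbp1* alleles were floxed, *Pcbp1*(fl/fl), and these are called PyMT *Pcbp1*–/– or knockout tumors. The other 5 were *Pcbp1*(wt/wt) and are called PyMT *Pcbp1*+/+ or wild-type tumors, so that both groups expressed Cre. The MMTV promoter directs Cre to mammary epithelial cells, so macrophages were not the cells targeted for deletion. A bulk tumor sample mixes all cell types, and fewer cells of a type and less RNA per cell cannot be told apart. The labels do not say whether each tumor came from a separate mouse, and p-values measure the spread between these tumors.

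Total counts ranged from 10543189 in wild-type replicate 2 to 14092192 in knockout replicate 5. The knockout libraries were deeper (two-sided exact permutation test of the difference in means, n = 6 and n = 5, p = 0.0173). A count of 3, the upper limit that a count of 0 allows, corresponded to between 0.213 and 0.285 CPM, and this limit covers counting error only. The targeted gene *Pcbp1* (ENSMUSG00000051695.6) measured 15.4 CPM at the lowest, 20.9 at the median and 33.6 at the highest in the 6 knockout tumors, against 268, 271, 225, 220 and 259 CPM in wild-type replicates 1 to 5. The groups did not overlap, in the direction of the labels.

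Markers of macrophages were detected in all tumors. Of a list of 30 macrophage identity genes, which includes 7 of the 10 members, none was at 0 in any tumor and 29 passed the filter, the exception being *Pf4*, with 0.491 ± 0.267 CPM (SD, n = 6) in knockout and 0.450 ± 0.228 CPM (SD, n = 5) in wild-type tumors. The epithelial label of the tissue was also met, with *Cdh1*, an adhesion molecule of epithelial cells, at 311 ± 50.8 CPM (SD, n = 6) in knockout and 334 ± 55.2 CPM (SD, n = 5) in wild-type tumors.

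Among the 10 members, *Trem2* was higher in knockout tumors and no other member passed the test. With edgeR's quasi-likelihood test and Benjamini-Hochberg adjustment over the 19232 genes tested, 1 of 10 members had an adjusted p under 0.05 and a higher level in knockout tumors, against 117 genes or 0.608% of all genes. None of the 10 was lower by the same test, against 319 genes or 1.66%. DESeq2 called 0 members lower, against 730 genes or 3.96% of the 18448 to which it gave an adjusted p, and limma-voom with sample quality weights called 0, against 1190 genes or 6.19%, as did limma on log2(CPM + 1), against 228 genes or 1.19%. The same tools each called 1 member higher, *Trem2*, against 486 genes or 2.63% with DESeq2, 968 genes or 5.03% with limma-voom and 92 genes or 0.478% with limma on log2(CPM + 1). At an unadjusted p under 0.05 from edgeR 0 members were lower, against 2025 genes or 10.5%. At an unadjusted p under 0.05, 2 members were higher, *Trem2* and *Cd163*, against 1576 genes or 8.19%. The CPM of the groups did not overlap for 1 member higher in knockout tumors, *Trem2*, against 244 genes or 1.27% of all genes, and for 0 members lower in them, against 389 genes or 2.02%. Numbers this small among 10 genes are not a result about the members as a group.

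These background counts moved with single tumors. The 319 lower genes became 144, 148, 163 and 212 without knockout replicates 3, 4, 5 and 6, and 171, 184 and 148 without wild-type replicates 1, 3 and 4. The 117 higher genes became 42, 46, 48 and 69 without the same knockout replicates, 54, 41 and 42 without the same wild-type replicates, and 187 without wild-type replicate 2.

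The log2 fold change, knockout over wild-type, was above 0 for 9 of 10 members and below 0 for *Csf1*. With limma-voom and sample quality weights that of *Csf1r* also lay below 0. The median over the members was 0.38, beside a median of 0.00 over all genes tested, of which 9613 were above 0 and 9619 below.

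**Figure D1:**
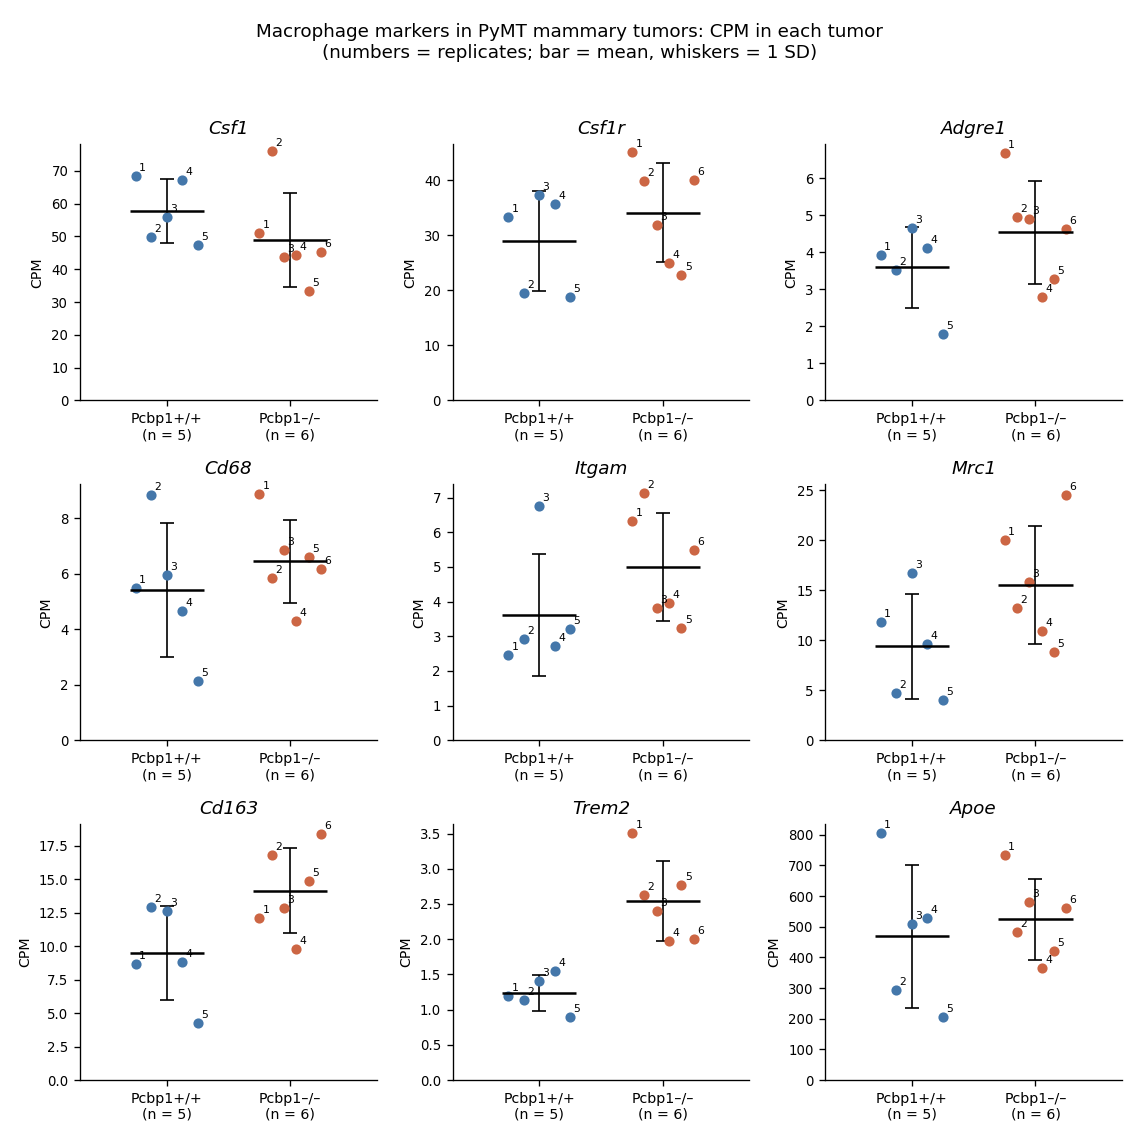
CPM of macrophage markers in each of the 5 PyMT *Pcbp1*+/+ and 6 PyMT *Pcbp1*–/– tumors, with the replicate number at each point, the group mean as a bar and 1 SD as whiskers. The groups are apart for *Trem2*, with wild-type tumors at 1.55 CPM or less and knockout tumors at 1.97 CPM or more, and overlap for the other genes plotted.

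*Csf1*, the gene of the growth factor that sustains macrophages, is annotated in GRCm38 on chromosome 3, 107741048 to 107760469, minus strand (ENSMUSG00000014599.10). It measured 33.3 CPM at the lowest, 44.8 at the median and 76.0 at the highest in knockout tumors, against 68.3, 49.8, 56.0, 67.2 and 47.3 CPM in wild-type replicates 1 to 5. Knockout replicate 2 was the highest of all 11 tumors and knockout replicate 5 the lowest, and the groups overlapped. *Csf1* was the one member with a lower fitted level in knockout tumors, with a log2 fold change of -0.24, a standard error (SE) of 0.17 and an adjusted p of 0.475 from edgeR. This value was -0.40 without knockout replicate 2, -0.15 without knockout replicate 5 and -0.41 with limma-voom and sample quality weights. *Csf1* was not called in any of these fits, narrowly so with limma-voom (adjusted p = 0.05185).

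The receptor gene *Csf1r* lies on the plus strand of chromosome 18, from 61105572 to 61132149 (ENSMUSG00000024621.15). It measured 22.9 CPM at the lowest, 35.8 at the median and 45.2 at the highest in knockout tumors, and 33.3, 19.6, 37.4, 35.7 and 18.8 CPM in wild-type replicates 1 to 5. Wild-type replicates 2 and 5 were the lowest of all 11 tumors and knockout replicates 1 and 6 the highest, with overlap between the groups. Its fitted log2 fold change was 0.23 (SE 0.23, edgeR adjusted p = 0.614), which turned to -0.06 with limma-voom and sample quality weights (adjusted p = 0.859, with adjusted p-values between 0.439 and 0.859 over all alternatives). It was 0.14 without knockout replicate 1, and 0.12, 0.39 and 0.13 without wild-type replicates 2, 3 and 5. The end of *Csf1r* overlaps *Hmgxb3*, annotated on the opposite strand from 61131279 to 61177050 with a mean of 24.4 CPM. The libraries were stranded, but whether strand was used in counting is not given in the sources used here, so reads of these genes may not be separable there.

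Of the other 12 genes in a list of 14 around this axis, *Csf2* was not analysed here and *Csf3*, encoding the growth factor of granulocytes, did not pass the filter. Counting both members, 12 genes of the list were tested, with 8 log2 fold changes below 0, 4 above 0 and a median of -0.12. The second ligand of the receptor, *Il34*, measured 2.69 ± 0.805 CPM (SD, n = 6) in knockout and 3.24 ± 0.726 CPM (SD, n = 5) in wild-type tumors (log2 fold change -0.26, SE 0.23, edgeR adjusted p = 0.572). *Cbl*, which encodes a ubiquitin ligase that acts on the activated receptor, was the most abundant gene of the list, at 145 ± 7.71 CPM (SD, n = 6) and 149 ± 13.2 CPM (SD, n = 5).

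Of the 12 tested genes around the CSF1 axis, 1 passed the test, lower in knockout tumors, beside 1.66% of all genes. This gene, *Csf2ra*, encodes the ligand-binding chain of the GM-CSF receptor (ENSMUSG00000059326.6). Its level was 3.25 CPM at the lowest, 4.85 at the median and 5.13 at the highest in knockout tumors, and 7.67, 8.63, 9.20, 9.20 and 7.95 CPM in wild-type replicates 1 to 5. All 6 knockout tumors lay below all 5 wild-type tumors. Knockout over wild-type, *Csf2ra* had a log2 fold change of -0.95 (SE 0.15, edgeR adjusted p = 0.00728), and leaving out any single tumor kept the adjusted p between 0.0118 and 0.0234. *Csf2rb*, the gene of the signalling chain of the same receptor, had a log2 fold change of -0.19 (SE 0.23, edgeR adjusted p = 0.691), and the difference between the chains was not tested.

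The 3 general markers did not differ beyond the spread between tumors. *Adgre1* (ENSMUSG00000004730.14; chromosome 17, 57358686 to 57483529, plus strand) encodes F4/80, the adhesion receptor most used to stain mouse macrophages. It measured 2.78 CPM at the lowest, 4.77 at the median and 6.66 at the highest in knockout tumors, against 3.93, 3.51, 4.64, 4.10 and 1.79 CPM in wild-type replicates 1 to 5. Knockout replicate 1 was the highest and wild-type replicate 5 the lowest of all 11 tumors, and 3 of 6 knockout tumors lay above all wild-type tumors. For *Adgre1* the log2 fold change was 0.33 (SE 0.26, edgeR adjusted p = 0.532), and it was 0.17 without wild-type replicate 5, 0.19 without knockout replicate 1 and 0.06 with limma-voom and sample quality weights.

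*Cd68* (ENSMUSG00000018774.13; chromosome 11, 69664213 to 69666153, minus strand) encodes macrosialin, a glycoprotein of lysosomes. Its CPM ran from 4.31 through a median of 6.39 to 8.89 in knockout tumors and was 5.48, 8.82, 5.96, 4.65 and 2.14 in wild-type replicates 1 to 5. Wild-type replicate 2 nearly reached the highest knockout tumor, while wild-type replicate 5 was the lowest of all. For *Cd68* the log2 difference between the groups was 0.25 (SE 0.28, edgeR adjusted p = 0.665), and it was 0.06 and 0.50 without wild-type replicates 5 and 2 and 0.15 without knockout replicate 1.

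*Itgam* (ENSMUSG00000030786.18; chromosome 7, 128062640 to 128118491, plus strand) encodes CD11b, an integrin chain of myeloid cells. Its CPM ran from 3.25 through a median of 4.72 to 7.12 in knockout tumors and was 2.47, 2.93, 6.75, 2.73 and 3.20 in wild-type replicates 1 to 5. Wild-type replicate 3 stood apart from the other 4 wild-type tumors, all of which were below the 6 knockout tumors. With all tumors the log2 fold change was 0.43 (SE 0.31, edgeR adjusted p = 0.491), and without wild-type replicate 3 it was 0.83 (adjusted p = 0.137, with adjusted p-values up to 0.688 over the tumors left out in turn). With limma-voom and sample quality weights it was 0.25.

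The scavenger receptor genes had higher fitted levels in knockout tumors without passing the test. *Mrc1* (ENSMUSG00000026712.3; chromosome 2, 14229392 to 14332057, plus strand) encodes the mannose receptor CD206. It measured 8.80 CPM at the lowest, 14.5 at the median and 24.6 at the highest in knockout tumors, and 11.8, 4.74, 16.7, 9.66 and 4.02 CPM in wild-type replicates 1 to 5. Wild-type replicates 2 and 5 were below every knockout tumor, whereas wild-type replicate 3 was above 4 of them. For *Mrc1* the log2 fold change was 0.72 (SE 0.37, edgeR adjusted p = 0.32), and it was 1.09 without wild-type replicate 3 and 0.43 with limma-voom and sample quality weights.

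*Cd163* (ENSMUSG00000008845.9; chromosome 6, 124304656 to 124330527, plus strand) encodes the receptor that takes up hemoglobin-haptoglobin complexes. It measured 9.80 CPM at the lowest, 13.8 at the median and 18.4 at the highest in knockout tumors, and 8.68, 12.9, 12.6, 8.84 and 4.29 CPM in wild-type replicates 1 to 5. The ranges overlapped between 9.80 and 12.9 CPM, and 3 of 6 knockout tumors lay above all wild-type tumors. *Cd163* had a log2 fold change of 0.58 (SE 0.25), with an unadjusted p of 0.0428 and an adjusted p of 0.249 from edgeR.

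*Trem2* (ENSMUSG00000023992.14; chromosome 17, 48346401 to 48354147, plus strand) encodes a receptor for lipids and apolipoproteins that marks a state of lipid-laden macrophages. It measured 3.50, 2.62, 2.40, 1.97, 2.77 and 2.01 CPM in knockout replicates 1 to 6 and 1.19, 1.14, 1.40, 1.55 and 0.893 CPM in wild-type replicates 1 to 5. These levels rested on 41, 35, 27, 27, 39 and 26 counts in the knockout tumors and on 13, 12, 16, 17 and 10 counts in the wild-type tumors. All 6 knockout tumors were above all 5 wild-type tumors. The log2 fold change was 1.04 (SE 0.22, edgeR adjusted p = 0.0294), a 2.05-fold higher fitted level. It was 0.81 with limma-voom and sample quality weights and 0.66 with limma on log2(CPM + 1), a scale that understates changes of genes with low levels, and *Trem2* was called in both.

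The direction of the *Trem2* difference held with each of the 11 tumors left out, between 0.93 and 1.12 on the log2 scale, and the call held in 5 of these 11 fits. The adjusted p from edgeR was 0.0519, 0.0611 and 0.0678 without knockout replicates 1, 3 and 5, and 0.0730, 0.0577 and 0.0561 without wild-type replicates 1, 4 and 5. At 10 to 41 counts per tumor, counting error is a sizeable part of the spread of this gene.

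*Apoe* (ENSMUSG00000002985.16; chromosome 7, 19696109 to 19699188, minus strand) encodes apolipoprotein E, a lipid carrier and a known ligand of TREM2. It measured 364 CPM at the lowest, 522 at the median and 735 at the highest in knockout tumors, and 805, 292, 510, 529 and 206 CPM in wild-type replicates 1 to 5. The wild-type tumors included both the highest and the 2 lowest of all 11 values. For *Apoe* the log2 fold change was 0.18 (SE 0.28, edgeR adjusted p = 0.771), and this value depended on single tumors and on the method. It was 0.42, 0.05 and 0.002 without wild-type replicates 1, 2 and 5, 0.06 without knockout replicate 1, 0.01 with limma-voom and sample quality weights and 0.28 with limma on log2(CPM + 1) or log2(CPM + 0.1).

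*Trem2* was also set against general markers, a comparison added after its values had been seen and given as a description with no test. The log2 ratio of *Trem2* to *Adgre1* CPM was -0.80 ± 0.36 (SD, n = 6) in knockout and -1.50 ± 0.31 (SD, n = 5) in wild-type tumors, a difference of 0.70 with 4 of 6 knockout tumors above all wild-type tumors. The ratio to *Csf1r* differed by 0.79, with 5 of 6 knockout tumors above all wild-type tumors. The ratio to *Cd68* differed by 0.68, with 3 of 6 above them, and by 0.45 without wild-type replicate 2. With 1 added to each CPM before the ratio was taken, the differences were 0.39 for *Adgre1*, 0.41 for *Csf1r* and 0.38 for *Cd68*. These ratios carry the *Trem2* difference already given and are not independent of it.

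Levels of different genes were compared per kilobase, and the lengths came from a later annotation than the one behind the counts. With the union of all annotated exons, which includes retained introns and can be longer than the gene as counted, *Apoe* had a mean level of 123 ± 43.7 CPM per kilobase (SD, n = 11). With the length of its canonical transcript, an alternative added after seeing the data, it had 229 ± 81.2 CPM per kilobase (SD, n = 11). By either length *Apoe* was above the other members named, its lowest tumor (51.0 with the union and 94.6 with the canonical transcript) lying above the highest tumor of *Csf1* (12.9 and 18.1). *Csf1* had 9.00 ± 2.17 CPM per kilobase with the union and 12.6 ± 3.04 with the canonical transcript. *Cd68* had 4.37 ± 1.41 and 4.99 ± 1.61 CPM per kilobase by these lengths, and *Csf1r* 4.32 ± 1.22 and 5.25 ± 1.48, with ranges that overlapped by both lengths and an order that turned. The place of *Trem2* depended on the length, from 0.394 ± 0.164 CPM per kilobase over a union of 4946 bases, the lowest of the members named, to 1.79 ± 0.744 over a canonical transcript of 1088 bases, above *Adgre1* and *Itgam*. *Cd163* stood at 2.17 ± 0.719, *Mrc1* at 1.63 ± 0.797, *Adgre1* at 1.17 ± 0.367 and *Itgam* at 0.853 ± 0.337 CPM per kilobase with the union, and at 2.72, 2.33, 1.22 and 1.17 with the canonical transcripts. The ranges of *Cd163*, *Mrc1*, *Adgre1*, *Itgam* and *Trem2* over the 11 tumors overlapped by the canonical lengths.

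Single tumors were high or low for many members together. Wild-type replicate 5 was the lowest of all 11 tumors for 7 of 10 members, *Apoe*, *Adgre1*, *Cd163*, *Cd68*, *Trem2*, *Csf1r* and *Mrc1*. Knockout replicate 1 was the highest of all 11 for 4 members, *Adgre1*, *Cd68*, *Trem2* and *Csf1r*. Within the knockout group, replicate 4 was the lowest for 5 members and replicate 5 for 4, and within the wild-type group replicate 3 was the highest for 5.

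To describe this shared variation apart from genotype, log2(CPM + 1) was centred within each genotype and each member was set against *Adgre1* over the 11 tumors, in 9 relations whose points share the same libraries and depth. *Csf1r* followed *Adgre1* most closely, with Pearson's r of 0.85 (permutation p = 0.00026, adjusted p = 0.00234) and Spearman's rho of 0.92 (permutation p = 0.00017, adjusted p = 0.00153). Without wild-type replicate 5 and knockout replicate 4, the tumors farthest from the median of *Adgre1*, r was 0.81. *Mrc1* had an r of 0.77 (permutation p = 0.00512, adjusted p = 0.0154), a rho of 0.73 (permutation p = 0.0144, adjusted p = 0.0259) and an r of 0.69 without these tumors. *Apoe* had an r of 0.81 (permutation p = 0.00252, adjusted p = 0.0113), a rho of 0.83 (permutation p = 0.00275, adjusted p = 0.00825) and an r of 0.58 without them. In these 3 genes the abundance of the marker thus rose and fell with that of *Adgre1* between tumors of one genotype.

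*Trem2* had an r of 0.71 with *Adgre1* (permutation p = 0.0143, adjusted p = 0.0258) and a rho of 0.84 (permutation p = 0.00240, adjusted p = 0.00825), but r was 0.47 without the same pair of tumors. For *Cd68* an r of 0.74 (permutation p = 0.00861, adjusted p = 0.0194) came with a rho of 0.49 (permutation p = 0.130, adjusted p = 0.194), and r was 0.19 without these tumors, so that the relation rests on them. The same held for *Cd163*, with an r of 0.62 (permutation p = 0.0435, adjusted p = 0.0653), a rho of 0.26 (permutation p = 0.436, adjusted p = 0.436) and an r of -0.21 without them. With log2(CPM + 0.1) *Cd163* had an r of 0.65 (permutation test, adjusted p = 0.0461) and without centring by genotype 0.68 (permutation test, adjusted p = 0.0499), so that it passed under both alternatives. *Csf1* had an r of 0.53 (permutation p = 0.0960, adjusted p = 0.123), a rho of 0.75 (permutation p = 0.0112, adjusted p = 0.0253) and an r of 0.52 without them, and its r was 0.30 without centring by genotype. *Itgam* did not pass, with an r of 0.49 (permutation p = 0.12, adjusted p = 0.134), a rho of 0.41 (permutation p = 0.214, adjusted p = 0.275) and an r of 0.63 without the same tumors.

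**Figure D2:**
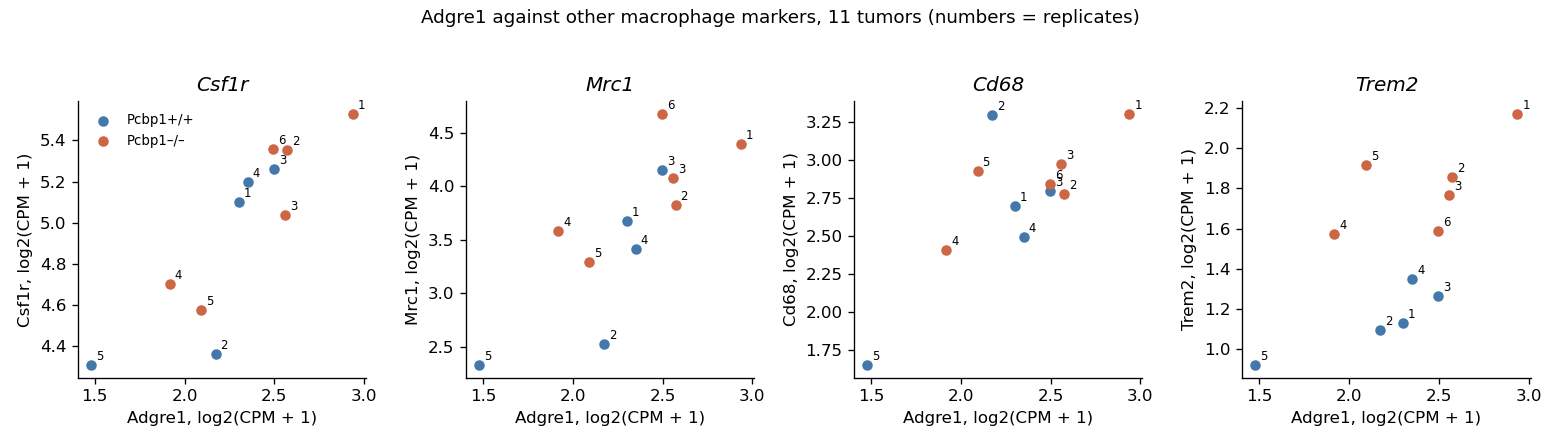
*Adgre1* (x axis) against *Csf1r*, *Mrc1*, *Cd68* and *Trem2* (y axes), each as log2(CPM + 1), in 5 PyMT *Pcbp1*+/+ and 6 PyMT *Pcbp1*–/– tumors with replicate numbers at the points. *Csf1r* rises with *Adgre1* in both groups, wild-type replicate 5 is at the lower end in every panel, and in the last panel the knockout tumors lie above the wild-type tumors.

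Over all 45 pairs of members, r of the centred values was above 0 in 38 and above 0.5 in 17, with a median of 0.41. It was highest between *Csf1r* and *Mrc1*, 0.90. These pairwise values are a description with no test.

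Among 18694 tested genes with a mean of at least 1 CPM, the 5 with the highest r with *Adgre1* over the 11 tumors included *C3ar1*, at 0.951, *C1qb*, at 0.945, *Mpeg1*, at 0.941, and *C1qc*, at 0.937. *C3ar1* encodes the receptor for the complement fragment C3a, *C1qb* and *C1qc* encode chains of complement C1q, and *Mpeg1* encodes the pore-forming protein perforin-2. Among the members, *Csf1r* ranked 85 in this order, *Apoe* 180, *Mrc1* 299, *Cd68* 446 and *Trem2* 584. *Cd163* ranked 1235, *Csf1* 2180 and *Itgam* 2637.

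The wider list of macrophage identity genes did not move in one direction. Of 29 genes tested, 21 had a log2 fold change above 0 and 8 below 0, with a median of 0.17. Their summed level was between 759.6 and 1186 CPM in knockout tumors (median 945) and between 724 and 1293 CPM in wild-type tumors (median 944). This sum is weighted to abundant genes that moved in opposite directions. Among them, *Lyz2* had a mean of 194 CPM in knockout and 94.4 CPM in wild-type tumors, and *Cd14* 80.4 and 186 CPM. Similar sums therefore do not show equal macrophage content. The C1q genes that followed *Adgre1* did not pass the test. *C1qb* was at 69.1 ± 19.1 CPM (SD, n = 6) in knockout and 61.6 ± 17.8 CPM (SD, n = 5) in wild-type tumors. Its log2 fold change was 0.16 (SE 0.22, edgeR adjusted p = 0.727), and that of *C1qc* was 0.19 (SE 0.22, edgeR adjusted p = 0.688). *Spi1*, encoding the transcription factor PU.1 of the myeloid lineage, measured 5.86 ± 1.66 CPM (SD, n = 6) and 5.21 ± 1.89 CPM (SD, n = 5), with a log2 fold change of 0.16 (SE 0.25, edgeR adjusted p = 0.772).

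Of the 29 tested genes of this list, 2 were lower in knockout tumors by edgeR, *Cd14* (ENSMUSG00000051439.6) among them, beside 1.66% of all genes. Only 1 was higher, *Trem2*, beside 0.608%. *Cd14*, encoding the co-receptor for bacterial lipopolysaccharide, measured 64.7 CPM at the lowest, 77.1 at the median and 102 at the highest in knockout tumors. In wild-type replicates 1 to 5 it measured 309, 282, 97.3, 117 and 125 CPM. Wild-type replicates 1 and 2 were far above the rest, and wild-type replicate 3 lay within the knockout range. In wild-type replicates 1 and 2 *Csf1r* measured 33.3 and 19.6 CPM. Which cells of the tumor expressed *Cd14* was not tested. For *Cd14* the log2 fold change was -1.19 (SE 0.28, edgeR adjusted p = 0.0481). The adjusted p was 0.0828, 0.0679, 0.0848, 0.0699, 0.10 and 0.0900 without knockout replicates 1 to 6 in turn, 0.0997 and 0.0751 without wild-type replicates 1 and 2, and 0.0606 with library size in place of TMM factors. Without a filter on low counts it was 0.0570. Limma-voom with sample quality weights gave a log2 fold change of -0.70 (adjusted p = 0.0861), and limma on log2(CPM + 1) and log2(CPM + 0.1) gave adjusted p-values of 0.0888 and 0.0896. *Cd14* was called with DESeq2, with upper-quartile factors, with protein-coding genes only and with a minimum of 1 CPM (adjusted p between 0.00200 and 0.0477).

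*Lyz2*, the lysozyme gene of myeloid cells, is named here after its values were seen. It measured 194 ± 36.9 CPM (SD, n = 6) in knockout and 94.4 ± 41.3 CPM (SD, n = 5) in wild-type tumors, with overlap between the groups. Its log2 fold change of 1.02 (SE 0.26) missed the threshold with edgeR (adjusted p = 0.0657), whereas DESeq2, limma-voom and limma on log2(CPM + 1) each called 2 of 29 genes of the list higher, *Lyz2* and *Trem2*, beside shares of 2.63%, 5.03% and 0.478% over all genes.

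**Figure D3:**
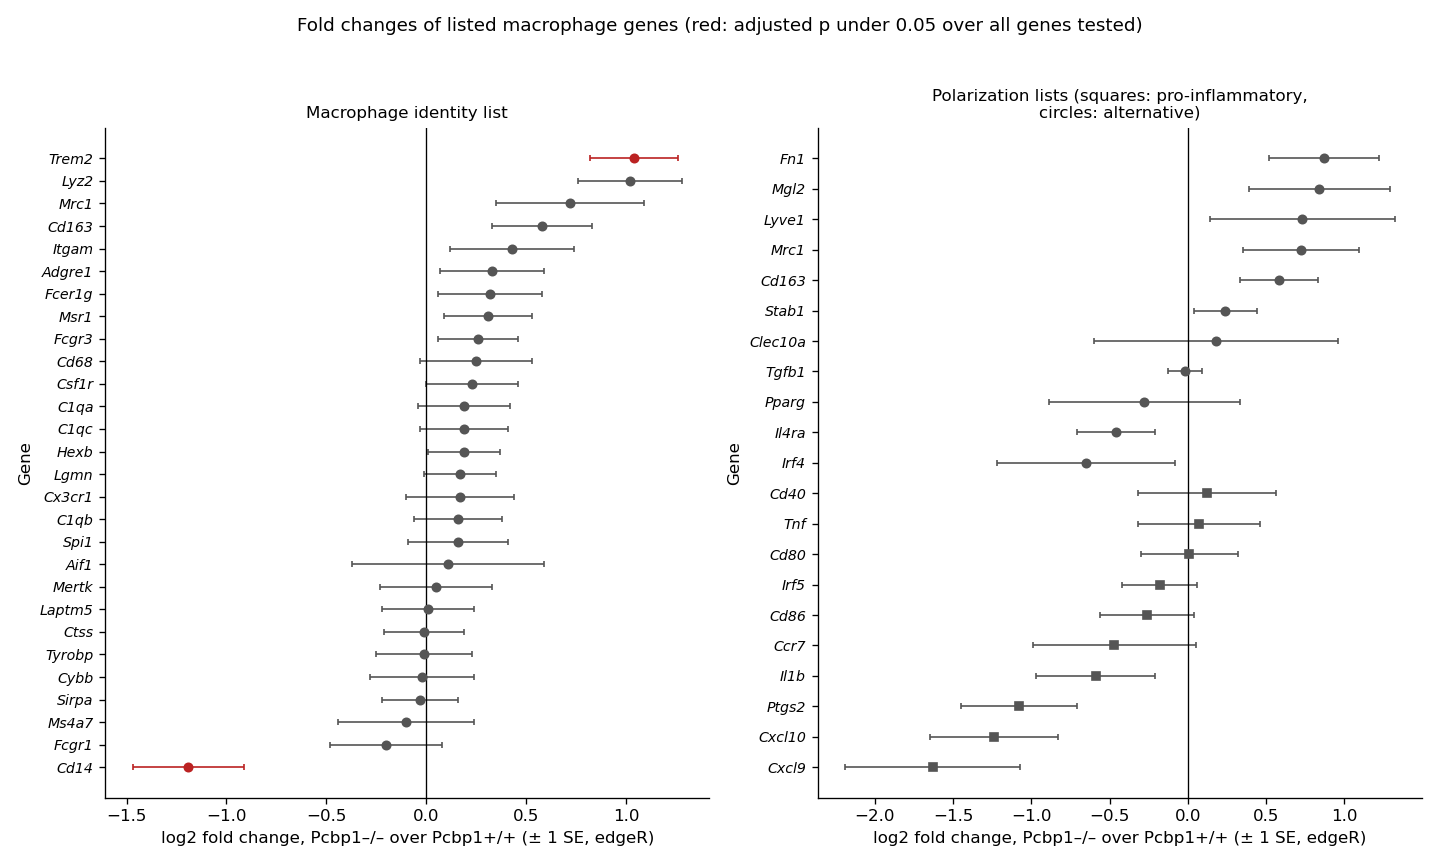
Log2 fold change, PyMT *Pcbp1*–/– over PyMT *Pcbp1*+/+, with 1 standard error from edgeR for tested macrophage identity genes (left) and tested genes of the pro-inflammatory and alternative polarization lists (right). In the left panel *Cd14* lies at -1.19 and *Trem2* at 1.04, and in the right panel no gene shown has an adjusted p under 0.05.

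*Trem2* stood apart from most genes listed with it. In a list of 18 genes around TREM2 and lipid handling, all tested, 9 log2 fold changes were below 0 and 9 above, with a median of 0.00, and *Trem2* alone passed the test with edgeR, higher in knockout tumors, beside 0.608% of all genes. *Tyrobp*, encoding the adaptor DAP12 through which TREM2 signals, measured 2.59 ± 0.655 CPM (SD, n = 6) in knockout and 2.58 ± 0.647 CPM (SD, n = 5) in wild-type tumors, a log2 fold change of -0.01 (SE 0.24, edgeR adjusted p = 0.988). *Spp1*, encoding osteopontin, a secreted protein of tumor cells and macrophages, was at 223 ± 102 CPM (SD, n = 6) and 660 ± 487 CPM (SD, n = 5), with a log2 fold change of -1.53 (SE 0.44, edgeR adjusted p = 0.0941), and DESeq2 called it lower, beside 3.96% of all genes. *Gpnmb*, a transmembrane glycoprotein of lipid-laden macrophages, had a log2 fold change of 1.01 with a standard error of 0.60 (adjusted p = 0.389 from edgeR). The summed level of the list lay between 1404 and 2079 CPM in knockout tumors (median 1665) and between 1575 and 3386 CPM in wild-type tumors (median 1863), with *Apoe* the most abundant gene. Except for *Trem2*, these genes were named after their values were seen, as examples of the list.

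Of 17 genes of pro-inflammatory polarization, 11 were tested, with 8 log2 fold changes below 0 and a median of -0.47. None passed the test with edgeR, and 4 of 11 were lower at an unadjusted p under 0.05 (*Cxcl9*, *Cxcl10* and *Ptgs2* among them), beside 10.5% of all genes. DESeq2 called 1 lower, beside 3.96% of all genes, limma-voom with sample quality weights called 3 lower (*Cxcl9* and *Cxcl10* among them), beside 6.19%, and limma on log2(CPM + 1) called 0, beside 1.19%. *Nos2*, which encodes the inducible nitric oxide synthase of inflammatory macrophages, did not pass the filter, with 0.130 ± 0.0604 CPM (SD, n = 6) and 0.146 ± 0.0821 CPM (SD, n = 5), below the level of 3 counts. *Fpr2*, *Il12b* and *Il6* were at 0 in at least 1 tumor. The summed level was between 44.98 and 64.1 CPM in knockout tumors and between 55.5 and 124.9 CPM in wild-type tumors. Several genes of this list respond to interferon in many cell types, and their part in macrophages was not tested.

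Of 20 genes of alternative polarization, 17 had rows and 12 were tested, while *Ccl24*, *Il10* and *Retnla* were not analysed here. The log2 fold change was above 0 for 8 and below 0 for 4, with a median of 0.41, and members such as *Mrc1* and *Cd163* are among them. None passed the test with edgeR, DESeq2 or limma-voom, and 2 of 12 were higher at an unadjusted p under 0.05, *Cd163* and *Fn1*, beside 8.19% of all genes. *Fn1*, the fibronectin gene, which fibroblasts and tumor cells also express, was the most abundant, at 182 ± 113 CPM (SD, n = 6) in knockout and 98.2 ± 33.0 CPM (SD, n = 5) in wild-type tumors (log2 fold change 0.87, SE 0.35, edgeR adjusted p = 0.210). *Ccl17*, *Chil3* and *Timd4* were at exactly 0 in at least 1 tumor. *Folr2* was above 0 by the deposited values, which rounded to a count of 0 in several tumors, among them every wild-type tumor. The summed level was between 209 and 563.8 CPM in knockout tumors and between 163 and 281 CPM in wild-type tumors. The difference between the polarization lists was not tested.

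Other immune cells were followed by their own lists, since some share markers with macrophages. No gene of the pan-leukocyte, monocyte, neutrophil, dendritic cell, T and NK cell, B and plasma cell or mast cell lists passed the test with edgeR or DESeq2. At an unadjusted p under 0.05, *Lcp1* and *F13a1* were higher and *Clec9a* and *Kit* lower, beside 8.19% and 10.5% of all genes, and limma-voom called *Nr4a1* and *Clec9a* lower, beside 6.19%. For the 10 pan-leukocyte genes the median was 0.01 on the log2 scale, and they summed to between 224 and 346 CPM in knockout and between 171 and 271 CPM in wild-type tumors. *Lcp1*, encoding the actin-bundling protein L-plastin, was the most abundant of them, at 163 ± 27.2 CPM (SD, n = 6) and 121 ± 27.5 CPM (SD, n = 5). It made up a large part of this sum, and which cells expressed it was not tested.

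Of 8 monocyte genes, 6 were tested, with a median of 0.54. The monocyte genes summed to between 275 and 738.5 CPM in knockout and between 138 and 613.7 CPM in wild-type tumors. *Vcan*, the gene of the matrix proteoglycan versican, was the most abundant, at 337 ± 163 CPM (SD, n = 6) and 220 ± 176 CPM (SD, n = 5). It made up a large part of this sum, and which cells expressed it was not tested. *Ly6c2* was at 0 in at least 1 tumor. Of 11 neutrophil genes, 2 passed the filter, with a median of -0.51, *Cxcr2*, *Mmp8*, *Ngp* and *S100a9* were at 0 in at least 1 tumor, and *Camp*, *Ly6g* and *Retnlg* were not analysed here. The neutrophil genes summed to between 22.4 and 88.5 CPM in knockout and between 44.7 and 110.1 CPM in wild-type tumors. *Ltf*, the lactoferrin gene, which mammary epithelium also expresses, led this sum. Of 10 dendritic cell genes, 7 were tested, with a median of -0.21, a sum of 16.5 to 32.6 CPM in knockout and 19.4 to 33.0 CPM in wild-type tumors, *Zbtb46* as the most abundant and *Cd209a* at 0 in at least 1 tumor.

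Lymphocyte genes were scarce. Of 14 T and NK cell genes, 6 were tested, with a median of 0.02 and a sum of 5.92 to 13.2 CPM in knockout and 6.07 to 15.2 CPM in wild-type tumors. *Cd8a* was their most abundant gene, and *Cd2*, *Cd3d*, *Cd8b1*, *Gzma* and *Ncr1* were at 0 in at least 1 tumor. Of 8 B and plasma cell genes, 2 were tested, with a median of -0.86. The list summed to 4.54 to 29.1 CPM in knockout and 4.17 to 48.8 CPM in wild-type tumors. *Ighm* was its most abundant gene, while *Cd79a* and *Ms4a1* were not analysed here. Of 6 mast cell genes, 1 was tested, *Kit*, which luminal progenitor cells also express, with a log2 fold change of -0.50. *Cma1*, *Mcpt4* and *Tpsb2* were at 0 in at least 1 tumor, *Cpa3* and *Ms4a2* were not analysed here, and *Kit* made up nearly all of the sum of 206 to 394 CPM in knockout and 231 to 604 CPM in wild-type tumors.

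Epithelial and stromal lists also had no gene that passed the test with edgeR, DESeq2 or limma-voom, with *Krt14* lower at an unadjusted p under 0.05, beside 10.5% of all genes. The 12 luminal genes had a median of -0.05 and summed to between 1476 and 2719 CPM in knockout and between 1679 and 2365 CPM in wild-type tumors, with *Cdh1* the most abundant. The 8 basal genes had a median of -0.12 and summed to between 130 and 443 CPM and between 103 and 916 CPM, with *Oxtr* the most abundant. The 10 fibroblast genes had a median of 0.15 and summed to between 513 and 1148 CPM and between 492 and 916 CPM, with *Col1a1* the most abundant. All 8 endothelial genes had a log2 fold change below 0, with a median of -0.18, and summed to between 57.1 and 97.0 CPM and between 57.5 and 100.7 CPM, with *Cdh5* the most abundant. Of 7 adipocyte genes, 6 were tested, all below 0, with a median of -0.72 and sums of 7.17 to 66.3 CPM and 12.2 to 112.6 CPM. *Lpl* was the most abundant of these, and *Adipoq*, *Cidec* and *Retn* were at 0 in at least 1 tumor. The part of these cell types in the levels of the members was not tested.

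Because several members varied together, their promoters were read for the core of the site bound by PU.1, GAGGAA, on both strands, where the reverse strand reads TTCCTC. RefSeq promoters of GRCm38.p6, 250 bases before to 50 bases after a gene's start, were matched for 7 of 10 members, with 3 starts for *Apoe*. *Adgre1* and *Csf1r* had no entry. The core was in 28.3% of all 32851 promoters. It occurred 3 times in the window of *Mrc1* and of *Itgam*, 2 times in that of *Cd68*, 1 time in that of *Trem2*, in 2 of the 3 windows of *Apoe* (2 times and 1 time), and not in those of *Csf1* and *Cd163*. The longer form GAGGAAGT, which contains the core, was in 3.20% of all promoters and in none of the members' windows. A match describes letters and not a bound site.

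The 250 bases before the start are shown for *Trem2* (chr17:48346151-48346400, plus strand), whose groups were apart, and for *Mrc1* (chr2:14229164-14229413, plus strand) and *Itgam* (chr7:128062390-128062639, plus strand), the members with the most matches, from 5′ to 3′ in GRCm38.p6, with the core in either direction in capitals. Of the 3 matches of *Itgam*, 2 lie in the bases shown and the other lies in the 50 bases after the start, which are not shown.
Trem2: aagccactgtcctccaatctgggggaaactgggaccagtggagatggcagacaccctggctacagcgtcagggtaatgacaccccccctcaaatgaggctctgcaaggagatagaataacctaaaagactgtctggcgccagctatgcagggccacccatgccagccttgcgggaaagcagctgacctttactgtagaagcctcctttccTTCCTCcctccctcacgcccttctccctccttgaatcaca
Mrc1: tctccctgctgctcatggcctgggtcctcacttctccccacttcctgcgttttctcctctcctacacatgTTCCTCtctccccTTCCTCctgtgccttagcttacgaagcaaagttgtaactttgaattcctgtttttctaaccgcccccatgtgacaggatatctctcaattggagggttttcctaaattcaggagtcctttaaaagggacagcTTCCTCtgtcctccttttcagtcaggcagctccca
Itgam: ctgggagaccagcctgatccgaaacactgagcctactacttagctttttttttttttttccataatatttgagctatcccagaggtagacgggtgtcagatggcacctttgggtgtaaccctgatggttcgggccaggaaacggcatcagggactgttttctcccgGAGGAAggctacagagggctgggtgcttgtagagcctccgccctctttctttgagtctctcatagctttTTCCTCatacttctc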

How the data were processed

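RNA from 11 mammary tumors was sequenced as poly(A)-enriched, stranded libraries. Per the study's methods and the submitters' processing notes, paired-end reads were mapped with Bowtie2 to the GRCm38 genome and analysed in Partek. The counting method is not given in the sources used here. The authors deposited an estimated count per gene, not whole in part of the values, and CPM, each estimated count divided by the tumor's total. Deposited ends were taken 1 base earlier. Counts were rounded and tested with edgeR 4.0.16 (R 4.3.3; TMM, default filter on low counts, quasi-likelihood test, genotype as the only term, Benjamini-Hochberg adjustment), after the code had been tested on simulated data. Each standard error (SE) is the absolute log2 fold change divided by the root of its F value. Permutation tests of group differences enumerated all arrangements of the absolute difference in means, and those of correlations used 100000 resamples (scipy 1.17.1). Lengths were the union of exons or, as an alternative added after seeing the data, the canonical transcript in GENCODE vM39, matched by Ensembl identifier, and no coordinates were taken from it.

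Alternatives were DESeq2 1.42.0, limma 3.58.1 (voom with sample quality weights, and log2(CPM + 1) or log2(CPM + 0.1)), library size only, upper-quartile factors, protein-coding genes only, no filter, a filter of 1 CPM in 5 tumors, the replicate number as a block and each tumor left out, and for correlations log2(CPM + 0.1) or no centring. 1 member and some other genes that the rules select are not reported here. Named genes were the members, *Pcbp1*, the most abundant gene of each list, every listed gene with an adjusted p under 0.05 and the 5 genes most like *Adgre1*. Other listed genes were named after their values were seen. The members and lists were chosen with earlier results of these data known.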

Additional observations from a re-analysis of the deposited data

Results flagged for a closer look

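In 10 of the 84 groups of tumors examined 1 tumor lay far from the others of its group, where chance gives about 1 in 20 groups. The groups are not independent, since the same tumors enter all of them and the list sums contain genes also examined alone, so the number is not compared with that share. *Itgam* was at 6.75 CPM in wild-type replicate 3, with the nearest wild-type tumor at 3.20 CPM. *Fn1* was at 402 CPM in knockout replicate 1, with the nearest knockout tumor at 194 CPM. *Ighm* was at 17.9 CPM in knockout replicate 6 (nearest 7.01 CPM) and at 30.1 CPM in wild-type replicate 3 (nearest 7.75 CPM). *Lpl* was at 54.4 CPM in wild-type replicate 3, with the nearest at 21.7 CPM. The list around TREM2 and lipid handling summed to 3386 CPM in wild-type replicate 1, with the nearest at 2075 CPM. The alternative polarization list summed to 563.8 CPM in knockout replicate 1, with the nearest at 332 CPM. The B and plasma cell list summed to 29.1 CPM in knockout replicate 6 (nearest 8.80 CPM) and to 48.8 CPM in wild-type replicate 3 (nearest 15.5 CPM). The adipocyte list summed to 112.6 CPM in wild-type replicate 3, with the nearest at 29.9 CPM. The sums of the B and plasma cell, adipocyte and alternative polarization lists contain *Ighm*, *Lpl* and *Fn1* and repeat the tumors that stood apart for these genes.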

How the results depend on the processing

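Across 42 results and 484 alternative values, 398 kept their direction and side of the threshold (counts within 1.5 times, levels and ratios within 1 SD), 37 fell below it, 2 passed it (the r of *Cd163* with *Adgre1*), 46 moved by more and 1 changed sign, *Csf1r*, at -0.06 with limma-voom. No member was called lower under any alternative. Genes lower and higher over the whole table numbered 730 and 486 with DESeq2 and 1190 and 968 with limma-voom. Of the macrophage identity list, 1 gene was lower with limma-voom, with limma on log2(CPM + 1) or log2(CPM + 0.1), with library size only and with no filter. *Cd14* was not called in these fits. In the same list 2 genes were higher with DESeq2, limma-voom and both limma fits. In a fit of 10 tumors with a replicate block, 118 genes were lower and 42 higher, 0 members were higher, the list had 1 lower and 0 higher genes, and the log2 fold change of *Trem2* was 1.08 (adjusted p = 0.112 from edgeR). *Csf2ra* had an adjusted p of 0.0514 there and *Cd14* of 0.193. Between tumors that share a number, r of the centred levels ran from -0.144 to 0.293. For numbers 1 and 5 the knockout tumor was closest to the wild-type tumor of its own number. These values were not tested and cannot decide whether the numbers pair the tumors, which the labels do not say. With each tumor left out, members higher ranged from 0 to 1, all genes lower from 144 to 389 and higher from 41 to 187, the list from 1 to 2 lower and from 0 to 2 higher, and *Trem2* from 0.93 to 1.12. The cause was not tested, beyond fewer tumors in the block and left-out fits. *Trem2* rested on 10 to 41 counts per tumor, where counting error limits precision.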
